A study of Mus musculus with 12 samples.

Results

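Integrins are cell surface receptors made of 1 alpha and 1 beta chain, and laminins are matrix proteins made of 1 alpha, 1 beta and 1 gamma chain. The genes described here are all those in the deposited gene table whose symbol names an integrin chain (Itga or Itgb) or a laminin chain (Lama, Lamb or Lamc). Proteins that only bind an integrin tail or resemble one were left out. The choice used the symbols and no measured value. It gave 35 of the 17901 genes in the table: 16 integrin alpha chains, 8 integrin beta chains, 5 laminin alpha chains, 3 laminin beta chains and 3 laminin gamma chains. RNA was sequenced from the mouse embryonic stem (ES) cell line TT2, in 4 groups of 3 libraries. The groups were wild-type cells (WT) and cells with both Rlf and Zfp292 knocked out (DKO), each kept in serum/LIF or treated with retinoic acid (RA). Serum/LIF was DMEM with Knockout Serum Replacement, FBS and LIF on gelatin-coated dishes. Treated cells received 5 µM RA for 72 hours in the same medium without LIF. The labels call the libraries biological replicates but do not say whether the DKO cells were 1 clone or several, so p-values measure the spread between these samples.

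Integrins hold cells to the matrix and connect it, through talin, kindlin and integrin-linked kinase, to the actin cytoskeleton. Laminin trimers are secreted and polymerize into the basement membrane, the sheet on which the first epithelia of the embryo form, and mouse ES cells both make laminin and attach to it. The Itgb1 chain pairs with most alpha chains, so that the alpha chain decides which matrix protein is bound. Retinoic acid with loss of LIF takes ES cells out of the undifferentiated state.

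Libraries held 30869766 to 40236799 reads in genes. Values below are the authors' normalized counts, and each log2 fold change carries its standard error (SE) after ±, both from limma on log2(value + 1) over all 12 libraries. Because 1 is added to each value, these fold changes understate the change of genes with low counts. Other folds are the ratio of the group means, and SDs are over the 3 libraries of a group. A gene was tested if it reached 10 normalized counts in at least 3 libraries, and it was called if its p, adjusted by Benjamini-Hochberg over the 15750 genes tested, was under 0.05. The targeted genes matched the labels. Rlf averaged 3611 in serum/LIF and 2611 after RA in WT against 2.30 and 0.316 in DKO, and Zfp292 was at 0 in all 6 DKO libraries. A list of 8 naive ES cell markers summed to 95494 to 96988 in WT and 83906 to 85588 in DKO in serum/LIF, and to 3531 to 3618 and 6166 to 6463 after RA. Replicate 2 of WT after RA stood apart in the table of repeats, where rRNA-class repeats took 41.7% of its counts against 4.14% to 7.28% in the others. Results that rest on it are given with and without it below.

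In serum/LIF, transcripts of most laminin chains were higher in DKO than in WT, while Lama3, Lama1 and Itgb7 were lower. Of the 34 members tested, 23 were called, 16 higher and 7 lower in DKO, where 33.2% of all genes tested were called, 17.8% higher and 15.4% lower. The median log2 fold change was 0.19 over the members and −0.01 over all genes tested. All 11 laminin genes were called, 8 higher and 3 lower, and of 23 integrin genes tested 8 were higher, 4 lower and 11 not called. Without replicate 2 of WT in serum/LIF the number of lower members fell to 4, since Itga10, Itgae and Lama2 lost their calls.

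After RA, 20 members were called between the genotypes, 13 higher and 7 lower in DKO, against 42.7% of all genes tested, 22.0% higher and 20.7% lower. The median log2 fold change was 0.24, and 0.01 over all genes tested. Integrins made up most of the higher calls, with 11 higher and 3 lower of 23. Among the 11 laminins, 2 were higher and 4 lower. Without replicate 2 of WT after RA, 10 members were higher and 6 lower, and Itga8, Itgal and Itgav were among those no longer called. In bulk RNA, a smaller share of cells making a transcript and less of it per cell cannot be told apart.

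**Figure D1:**
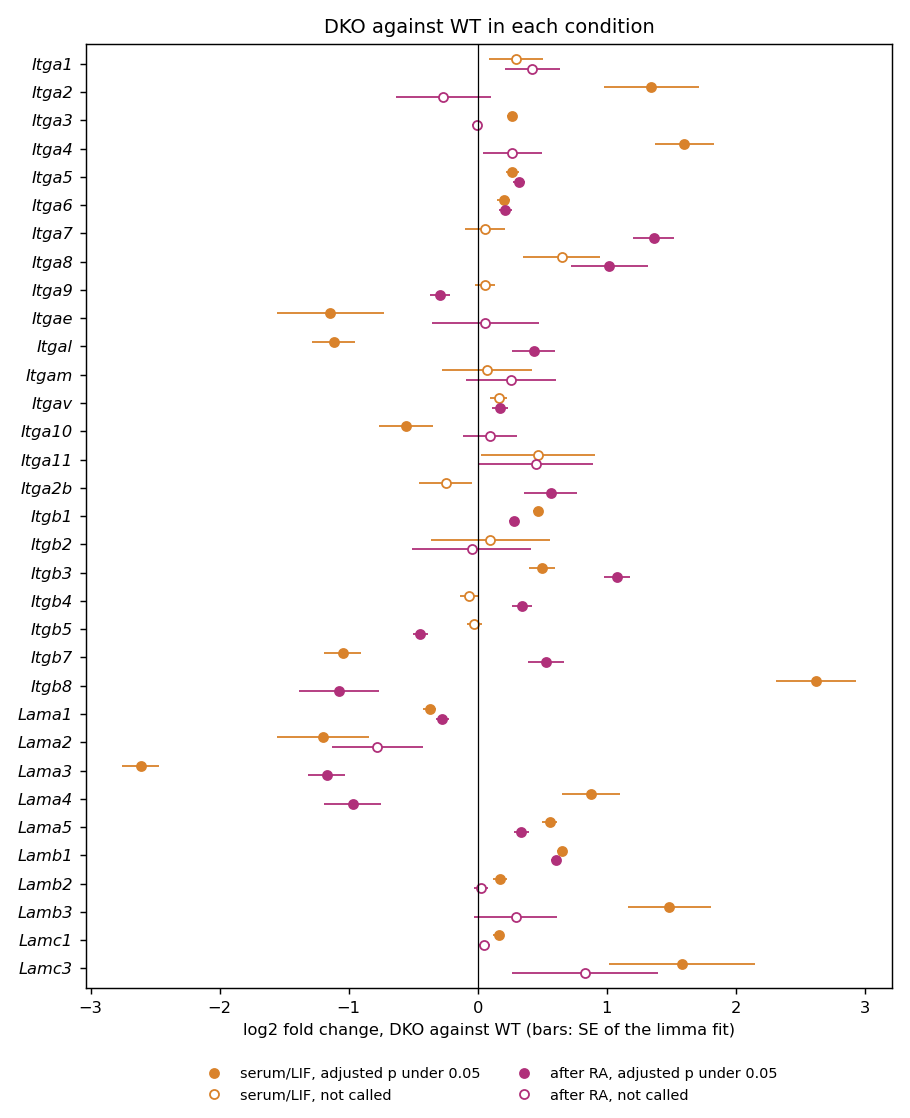
Log2 fold change of DKO against WT for 33 of the 34 members tested, with bars of 1 SE, in serum/LIF and after RA, where filled points passed the test. Itgb8 and Lama4 lay on opposite sides of 0 in the 2 conditions, and Lama3 lay below 0 in both.

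The most abundant laminin transcripts encode the chains of the alpha5 beta1 gamma1 trimer, a widely expressed laminin on which pluripotent cells attach. Lamb1 (NM_008482.3, mm10 chromosome 12, 31265293 to 31329644), the beta chain of this trimer, had 3186, 3212 and 3146 normalized counts in WT libraries and 5064, 4927 and 5009.7 in DKO libraries in serum/LIF, and 6478, 6459 and 6890.4 in WT and 10003, 9942 and 10231 in DKO after RA. The genotypes did not overlap in either condition. The DKO mean was 1.57 times that of WT in serum/LIF (log2 fold change 0.65 ± 0.04, limma adjusted p = 1.72e-12) and 1.52 times after RA (0.61 ± 0.04, adjusted p = 5.66e-12). Lama5 (NM_001081171.2, mm10 chromosome 2, 180176373 to 180225859), its alpha chain, had 3939, 3713 and 3504 in WT libraries and 5508, 5001 and 5952 in DKO libraries in serum/LIF. With RA, values were 9944, 10541 and 11691 in WT and 13336, 13677 and 13587 in DKO, again without overlap. Lama5 was at 1.48 times the WT mean in serum/LIF (0.56 ± 0.06, adjusted p = 2.24e-07) and 1.26 times after RA (0.34 ± 0.06, adjusted p = 9.5e-05). The third chain, Lamc1 (NM_010683.2, mm10 chromosome 1, 153218922 to 153332786), is the gamma chain of most laminins and moved less. It had 11979.5, 11449.8 and 11309 in WT libraries and 13012, 12571 and 13310.1 in DKO libraries in serum/LIF, a log2 fold change of 0.16 ± 0.04 (adjusted p = 0.00498). After RA, Lamc1 had 11669, 11034 and 12783 in WT and 12081, 12199 and 12400.3 in DKO, groups that overlapped and did not pass the test (0.05 ± 0.04, adjusted p = 0.371). Without replicate 3 of WT after RA its log2 fold change was 0.11 (adjusted p 0.0318). The count tests edgeR and DESeq2, run without replicate 2 of WT after RA, put it at −0.002 each (adjusted p 0.971 and 0.979).

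The promoters of 3 members that were higher in DKO in both conditions, Lama5, Lamb1 and Itgb1, are shown beside those of Itgb7 and Itgb8, whose genotype difference changed sign with RA. Each is the 250 bases before the annotated transcription start, 5′ to 3′ on the gene's strand, from RefSeq on GRCm38.p6. Capitals mark GC boxes (GGGCGG on either strand), a motif bound by SP family factors.
Lama5 (chr2:180225860-180226109, minus strand): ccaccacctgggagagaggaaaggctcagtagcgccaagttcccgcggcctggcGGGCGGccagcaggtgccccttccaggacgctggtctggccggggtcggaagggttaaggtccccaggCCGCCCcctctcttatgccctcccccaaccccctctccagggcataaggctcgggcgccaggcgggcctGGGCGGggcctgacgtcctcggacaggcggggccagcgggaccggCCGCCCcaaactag
Lamb1 (chr12:31265043-31265292, plus strand): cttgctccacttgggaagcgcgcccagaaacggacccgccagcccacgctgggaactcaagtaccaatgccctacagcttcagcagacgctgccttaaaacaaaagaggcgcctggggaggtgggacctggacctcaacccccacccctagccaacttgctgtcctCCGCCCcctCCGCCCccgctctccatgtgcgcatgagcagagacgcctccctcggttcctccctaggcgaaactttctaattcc
Itgb1 (chr8:128685404-128685653, plus strand): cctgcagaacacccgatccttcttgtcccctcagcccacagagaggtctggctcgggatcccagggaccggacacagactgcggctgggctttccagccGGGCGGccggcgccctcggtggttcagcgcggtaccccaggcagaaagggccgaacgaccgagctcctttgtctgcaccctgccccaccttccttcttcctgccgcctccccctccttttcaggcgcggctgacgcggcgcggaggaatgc
Itgb7 (chr15:102231936-102232185, minus strand): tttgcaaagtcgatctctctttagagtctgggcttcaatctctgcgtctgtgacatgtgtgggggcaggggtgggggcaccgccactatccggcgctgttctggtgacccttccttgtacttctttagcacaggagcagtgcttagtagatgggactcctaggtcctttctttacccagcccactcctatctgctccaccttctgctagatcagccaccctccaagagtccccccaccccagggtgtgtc
Itgb8 (chr12:119238277-119238526, minus strand): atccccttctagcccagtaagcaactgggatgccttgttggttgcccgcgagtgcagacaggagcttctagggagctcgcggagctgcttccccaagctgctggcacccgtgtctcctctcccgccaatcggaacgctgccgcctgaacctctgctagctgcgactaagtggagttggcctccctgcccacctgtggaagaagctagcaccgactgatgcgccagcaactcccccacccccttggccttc
The Lama5 window held 4 GC boxes, that of Lamb1 2, that of Itgb1 1, and those of Itgb7 and Itgb8 0. Among windows not shown, those of Itga3 and Itgb5 held 3 each, that of Itga5 2, and those of Itga4 and Itgam 1 each. After RA, Itga3 was not called between genotypes and Itgb5 was lower in DKO. The windows shown were picked, and GC boxes were not tested against the genotype difference. Of the 35 members, 22 had a RefSeq promoter window and 21 of these began at the start given in the deposited table. A GC box lay in 8 of these 21 windows (38.1%), and in 32.7% of 32817 RefSeq promoter windows of the same length. CG pairs numbered 0 to 22 in the 21 windows, with a median of 11 against 6 over all windows. Searches on both strands for AGGTCA, the half-site of retinoic acid receptors, for GATAAG, bound by GATA factors, and for TATAAA, the TATA box, matched in 0 of the 21 windows. Over all 32817 windows, AGGTCA was found in 14.03%, GATAAG in 6.55% and TATAAA in 12.37%. The counts of 0 were not tested against these shares. A match is a string of letters, and its absence says nothing of binding elsewhere.

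Lama1 (NM_008480.2, mm10 chromosome 17, 67697265 to 67822645), the alpha chain of the alpha1 beta1 gamma1 trimer that is among the first laminins of the mouse embryo, went the other way from Lama5. It had 2276, 2222 and 2160.2 normalized counts in WT libraries and 1804, 1563 and 1787 in DKO libraries in serum/LIF, and 4364, 4274 and 4419.5 in WT and 3579, 3665 and 3563 in DKO after RA. DKO was below WT in both conditions without overlap, 1.29-fold lower in serum/LIF (log2 fold change −0.37 ± 0.05, adjusted p = 3.29e-06) and 1.21-fold lower after RA (−0.27 ± 0.05, adjusted p = 0.000127). Lamb2 (NM_008483.3, mm10 chromosome 9, 108479862 to 108490530), a beta chain found with Lama5 in basement membranes of kidney and synapse, had 1376, 1223 and 1318 in WT libraries and 1543, 1386 and 1488 in DKO libraries in serum/LIF. Its difference was small (0.17 ± 0.05, adjusted p = 0.014) and was not called without replicate 2 of WT or replicate 1 of DKO, both of serum/LIF (adjusted p 0.0998 and 0.0847). After RA the Lamb2 groups overlapped, at 3939.5, 4267 and 4196 in WT and 4214, 4212 and 4199.6 in DKO (0.03 ± 0.05, adjusted p = 0.721).

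With RA, 13 of 17 endoderm markers tested were called higher and 1 lower in WT, and 13 higher and 0 lower in DKO. Among all genes tested, 41.4% were higher and 39.2% lower with RA in WT, and 40.2% and 38.2% in DKO. Of the 11 laminins, 8 rose and 1 fell in WT, and 7 rose and 2 fell in DKO. Parietal endoderm is a known source of laminin, and the 18 endoderm markers listed summed to 12012 to 12514 in WT and 13634 to 14744 in DKO in serum/LIF. After RA they summed to 33365 to 33754 in WT and 29006 to 30349 in DKO. Most of each sum was Sparc, a matrix protein that other cells make too. Ttr, the visceral endoderm gene for transthyretin, was the 1 marker at 0 in every serum/LIF library. The part of endoderm cells in the laminin values was not tested.

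Lama3 and Lamb3, laminin chains known from stratified epithelia, did not move together. Lama3, an alpha chain, had 1255, 1115 and 1119 normalized counts in WT libraries and 195, 194 and 179 in DKO libraries in serum/LIF, and 168, 142 and 183 in WT and 91.0, 66.1 and 62.6 in DKO after RA. Every DKO library was below every WT library of its condition. The DKO mean was 6.15-fold lower in serum/LIF (log2 fold change −2.61 ± 0.14, adjusted p = 5.57e-13) and 2.25-fold lower after RA (−1.17 ± 0.14, adjusted p = 4.25e-07). Lamb3, a beta chain, was low throughout, at 13.4 to 61.9 in all 12 libraries, and was higher in DKO in serum/LIF (1.49 ± 0.32, adjusted p = 0.000921). Of 8 markers of stratified epithelium, 7 were in the table, and of 5 tested 2 were called higher and 1 lower in DKO in serum/LIF, and 3 higher and 1 lower after RA. The 7 summed to 9973 to 10603 in WT libraries and 12181 to 13990 in DKO libraries in serum/LIF, and to 10223 to 12352 and 13846 to 14922 after RA, most of it Dst, a cytoskeletal linker. In serum/LIF the WT and DKO means were 164 and 41.7 for Col17a1, 126 and 232 for Lad1, 18.2 and 10.6 for Krt14, 0 and 5.01 for Krt5, 1.26 and 6.89 for Trp63, and 0.935 and 0.751 for Krt15. The part of epithelial cells in the Lama3 and Lamb3 values was not tested.

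Lama4 (NM_010681.4, mm10 chromosome 10, 38965515 to 39110188), a laminin alpha chain of vessels and muscle, had 21.0, 19.3 and 15.0 normalized counts in WT libraries and 36.7, 32.9 and 33.8 in DKO libraries in serum/LIF, and 222, 245 and 264 in WT and 108, 129 and 136 in DKO after RA. It was 1.87 times the WT mean in serum/LIF (log2 fold change 0.88 ± 0.22, adjusted p = 0.00335, or 0.0577 when only the serum/LIF libraries were fitted) and 1.96-fold lower than WT after RA (−0.97 ± 0.22, adjusted p = 0.00104), with no overlap in either. Lama2, the alpha chain of muscle basement membrane, stayed under 100 normalized counts in every library. It was lower in DKO in serum/LIF (−1.20 ± 0.36, adjusted p = 0.0114, or 0.0755 without replicate 2 of WT in serum/LIF and 0.0837 with only the serum/LIF libraries). After RA its means were 89.7 in WT and 52.1 in DKO, without overlap, and it was not called (−0.78 ± 0.36, adjusted p = 0.0832). It was called there with a pseudocount of 5 (adjusted p 0.0328), with only the RA libraries (0.00555), with edgeR (0.0338) and with DESeq2 (0.0372). Lamc3, a gamma chain, ranged from 1.91 to 52.8. In serum/LIF it was called higher in DKO (1.59 ± 0.57, adjusted p = 0.0339) although the groups overlapped, and the call was lost without replicate 1 or 2 of WT or replicate 1 or 3 of DKO, all of serum/LIF (adjusted p 0.0777 to 0.231), or when only the serum/LIF libraries were fitted (0.115).

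Set per kilobase of transcript, so that genes can be compared, Lama5 and Lama1 made up most of the laminin alpha transcripts. Lama5 held 48.4% ± 0.583 of the laminin alpha total in WT libraries and 70.2% ± 0.994 in DKO libraries in serum/LIF, and 64.3% ± 1.55 and 74.3% ± 0.175 after RA. The Lama1 share was lower in DKO, at 34.6% ± 0.750 against 26.3% ± 0.782 in serum/LIF and 31.3% ± 1.58 against 23.6% ± 0.249 after RA. Lama3 held 16.3% ± 0.526 in WT in serum/LIF and 2.63% ± 0.306 in DKO. Lamb1 took 70.0% ± 1.35 of the beta total in WT libraries and 76.0% ± 0.826 in DKO libraries in serum/LIF, and 60.6% ± 1.15 and 69.6% ± 0.402 after RA, with nearly all of the rest in Lamb2. Lamc1 held 94.8% to 96.7% of the gamma total as a group mean in all 4 groups. For Lama5, Lama1, Lama3 and Lamb1 the WT and DKO shares did not overlap in either condition, and the exact permutation test (2-sided, 3 libraries against 3) gave 0.1 for each, the smallest p it allows. The per-kilobase levels ran Lamc1, Lamb1, Lama5, Lama1, Lamb2 from high to low in WT in serum/LIF, at 1519, 550.0, 327, 233 and 232 normalized counts per kilobase. Lama1 and Lamb2 did not differ beyond their spread.

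**Figure D2:**
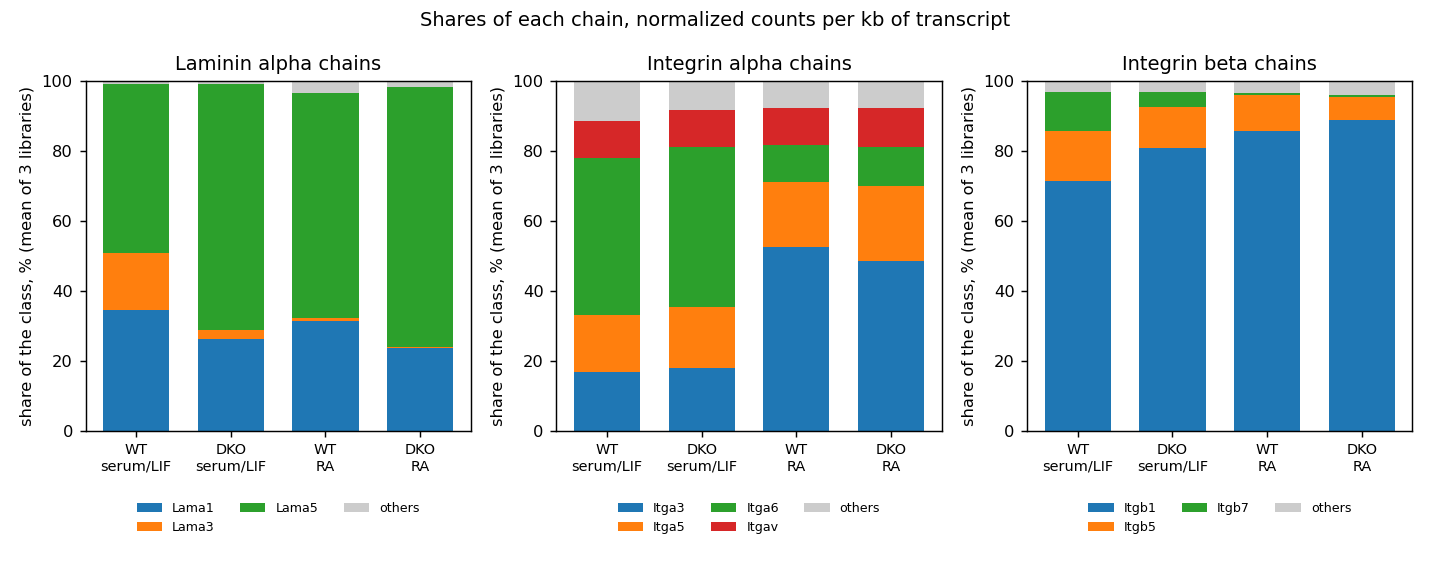
Mean share (%) of each chain in the total of its class, in normalized counts per kilobase of transcript, for the 4 groups of 3 libraries. Lama5 took a larger and Lama1 a smaller share of the laminin alpha chains in DKO, and Itgb1 held most of the integrin beta chains in every group.

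Itgb1, which pairs with most alpha chains, was the most abundant member. Itgb1 (NM_010578.2, mm10 chromosome 8, 128685654 to 128733579) had 12386, 12245 and 12229 normalized counts in WT libraries and 16574, 17771 and 16598 in DKO libraries in serum/LIF, and 18288, 17163 and 18226 in WT and 21826, 21249.6 and 22195 in DKO after RA. DKO lay above WT without overlap in both, at 1.38 times in serum/LIF (log2 fold change 0.47 ± 0.04, adjusted p = 3.13e-10) and 1.22 times after RA (0.28 ± 0.04, adjusted p = 8.63e-07). It held 71.4% ± 0.905 of the integrin beta transcripts per kilobase in WT libraries and 80.9% ± 1.44 in DKO libraries in serum/LIF, and 85.8% ± 0.938 and 88.9% ± 0.266 after RA.

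Itga3, Itga6 and Itga7 make laminin receptors with Itgb1. Itga6 (NM_008397.4, mm10 chromosome 2, 71786939 to 71858427), which ES cells use to bind laminin, had 5503, 5560.5 and 5279 in WT libraries and 6314, 6342 and 6123 in DKO libraries in serum/LIF, and 2226, 2078 and 2393 in WT and 2572, 2639 and 2555 in DKO after RA. DKO was higher in both conditions, by 0.20 ± 0.05 (adjusted p = 0.00182) and 0.22 ± 0.05 (adjusted p = 0.000655) on the log2 scale. Itga3 (NM_013565.3, mm10 chromosome 11, 95044475 to 95076714), the partner of Itgb1 in many epithelia, had 2208, 2332 and 2366 in WT libraries and 2713, 2773 and 2814 in DKO libraries in serum/LIF, a log2 fold change of 0.27 ± 0.04 (adjusted p = 6.8e-06). After RA the Itga3 groups overlapped, at 12579.7, 12640.2 and 12968 in WT and 12589, 12905 and 12579 in DKO (0.00 ± 0.04, adjusted p = 0.942). The order of the 2 genes per kilobase turned over with RA, since Itga6 held 44.8% ± 0.148 and Itga3 16.8% ± 0.894 of the alpha transcripts in WT in serum/LIF, and 10.4% ± 0.473 and 52.6% ± 0.662 after RA. Itga7 (NM_001330160.1, mm10 chromosome 10, 128933813 to 128958286), the laminin receptor of muscle, had 231, 219 and 195 in WT libraries and 226, 214 and 229.8 in DKO libraries in serum/LIF and did not pass the test (0.06 ± 0.16, adjusted p = 0.824). With RA it was at 78.4, 61.2 and 72.7 in WT and 223, 161 and 171 in DKO, 2.61 times the WT mean without overlap (1.37 ± 0.16, adjusted p = 1.79e-07). Itgb4, which pairs with Itga6 in the hemidesmosomes of epithelia, was at 442 to 479 in serum/LIF and did not pass the test there (−0.06 ± 0.07, adjusted p = 0.555), and was higher in DKO after RA (0.34 ± 0.07, adjusted p = 0.000644).

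Among receptors of fibronectin, vitronectin and related ligands with an RGD sequence, Itga5 and Itgb3 were higher in DKO in both conditions. Itga5 (NM_010577.4, mm10 chromosome 15, 103344286 to 103366791), the fibronectin receptor chain, had 2081, 2018 and 1961 normalized counts in WT libraries and 2449, 2256 and 2615 in DKO libraries in serum/LIF, and 3963, 4152 and 4059 in WT and 5159, 5076 and 4972 in DKO after RA. Its DKO means were 1.21 and 1.25 times those of WT (log2 fold changes 0.27 ± 0.05 and 0.32 ± 0.05, adjusted p = 0.000143 and 1.15e-05). Itgb3 (NM_016780.2, mm10 chromosome 11, 104608000 to 104670473), a beta chain of vitronectin receptors and of the platelet fibrinogen receptor, had 359, 407 and 323 in WT libraries and 539, 476 and 518 in DKO libraries in serum/LIF, and 222, 241 and 219 in WT and 499, 472 and 474 in DKO after RA. No WT library reached a DKO library of its condition, and the DKO means were 1.41 times (0.50 ± 0.10, adjusted p = 0.000535) and 2.12 times (1.08 ± 0.10, adjusted p = 7.52e-09) those of WT. Itgav (NM_008402.3, mm10 chromosome 2, 83724397 to 83806917), the alpha chain that pairs with Itgb1, Itgb3, Itgb5, Itgb6 or Itgb8, differed little. It had 2178, 2186 and 1933 in WT libraries and 2407, 2461 and 2176 in DKO libraries in serum/LIF (0.16 ± 0.06, adjusted p = 0.053), where leaving out any 1 of 5 libraries brought it under the threshold (adjusted p 0.0180 to 0.0497). These were replicates 1 and 2 of WT and 3 of DKO in serum/LIF and replicates 2 and 3 of WT after RA. In RA it had 3759, 3406 and 4168 in WT and 4171, 4259 and 4303 in DKO and was called (0.17 ± 0.06, adjusted p = 0.0312), a call lost without replicate 1 or 2 of WT or any 1 DKO library after RA (0.0553 to 0.213).

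Of the other partners of Itgav, Itgb5 was lower in DKO after RA and Itgb8 differed in opposite directions in the 2 conditions. Itgb5 (NM_001145884.1, mm10 chromosome 16, 33829665 to 33949338), a vitronectin receptor chain, had 2037, 2251 and 2128 in WT libraries and 2035, 1990.5 and 2287 in DKO libraries in serum/LIF, with no call (−0.03 ± 0.06, adjusted p = 0.788). RA-treated libraries had 1812, 1918 and 1745 in WT and 1360.5, 1333 and 1324 in DKO, 1.36-fold lower without overlap (−0.45 ± 0.06, adjusted p = 1.35e-06). Itgb8 (NM_177290.3, mm10 chromosome 12, 119162803 to 119238276), whose dimer with Itgav activates latent TGF-beta, had 3.82, 12.9 and 9.35 in WT libraries and 49.3, 59.9 and 51.8 in DKO libraries in serum/LIF. All DKO libraries were higher, at 6.18 times the WT mean (2.62 ± 0.31, adjusted p = 3.61e-07). After RA, Itgb8 had 154, 156 and 179 in WT and 70.2, 79.0 and 80.5 in DKO, so that all DKO libraries were lower, by 2.13-fold (−1.08 ± 0.31, adjusted p = 0.00693). Itgb6, an epithelial partner of Itgav, was the 1 member below the limit for testing, at 0 in the 6 serum/LIF libraries, 0, 4.01 and 1.79 in WT after RA and 17.1, 5.51 and 7.16 in DKO after RA. Itga8 (NM_001001309.3, mm10 chromosome 2, 12106632 to 12301944), the nephronectin receptor chain of kidney development, had 54.4, 23.6 and 23.4 in WT libraries and 45.9, 69.2 and 38.3 in DKO libraries in serum/LIF, which overlapped. Its adjusted p was 0.098 there, and 0.00675 without replicate 1 of WT. After RA it had 112, 65.2 and 100.5 in WT and 192, 159 and 204 in DKO, 2.00 times the WT mean (1.02 ± 0.30, adjusted p = 0.0078), or an adjusted p of 0.0509 without replicate 2 of WT after RA. Itga2b, which pairs with Itgb3 on platelets, was called higher in DKO after RA (0.57 ± 0.21, adjusted p = 0.0283), a call lost without replicate 1 of WT or any 1 DKO library after RA (0.0534 to 0.193). Of 8 platelet markers listed, 4 were in the table. Their sums were 26.7 to 53.7 in WT and 31.0 to 47.3 in DKO in serum/LIF, and 40.5 to 60.2 and 112 to 137 after RA. Most of the DKO sum after RA was Ppbp, at a mean of 84.0 against 19.9 in WT. The WT and DKO means after RA were 9.57 and 24.2 for Gp1ba, 5.21 and 5.26 for Gp1bb, and 13.0 and 14.8 for Gata1. Of 3 platelet markers tested, 1 was called higher and 0 lower after RA, against 22.0% and 20.7% of all genes tested. Their part in the Itga2b value was not tested.

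Itgb7, the beta chain of leukocyte homing receptors, fell in DKO in serum/LIF together with Itgal. Itgb7 (NM_013566.2, mm10 chromosome 15, 102215995 to 102231935) had 1327, 1369 and 1284 normalized counts in WT libraries and 592, 634 and 703 in DKO libraries in serum/LIF, 2.06-fold lower without overlap (log2 fold change −1.05 ± 0.14, adjusted p = 2.54e-06). With RA, values were 61.2, 100.4 and 96.9 in WT and 118, 119 and 129 in DKO, 1.42 times the WT mean (0.53 ± 0.14, adjusted p = 0.00392). Itgal (NM_001253872.1, mm10 chromosome 7, 127296260 to 127335137), the alpha chain of the lymphocyte receptor LFA-1, had 464, 551 and 528 in WT libraries and 263, 192 and 260.2 in DKO libraries in serum/LIF, 2.16-fold lower (−1.12 ± 0.17, adjusted p = 1.17e-05). In RA it had 104, 88.3 and 67.3 in WT and 121, 129 and 99.3 in DKO, which overlapped. The call there (0.44 ± 0.17, adjusted p = 0.0398) was lost without replicate 2 or 3 of WT or replicate 1 or 2 of DKO after RA (0.0536 to 0.222), and when only the RA libraries were fitted (0.0761). It was also lost with edgeR (0.0681) and DESeq2 (0.0716), which were both run without replicate 2 of WT after RA. Itgb2, the beta chain with which Itgal pairs, was at 3.74 to 15.0 in the serum/LIF libraries. Per kilobase, Itgal had 99.0 and Itgb2 3.61 normalized counts in WT in serum/LIF. The alpha partners of Itgb7 were also low beside it, with Itgb7 at 494 per kilobase, Itgae at 20.9 and Itga4 at 2.30. Itgae, of intraepithelial lymphocytes, was called lower in DKO in serum/LIF (−1.14 ± 0.41, adjusted p = 0.0363). That call was lost without any 1 WT library or replicate 1 or 2 of DKO in serum/LIF (0.0521 to 0.143). Itgam, of myeloid cells, did not pass the test between genotypes in either condition, and 68.7% of its exonic bases are shared with Gm49368 on the same strand, so its counts are uncertain. Of 9 leukocyte markers, 6 were in the table, with Ptprc, Cd48 and Tyrobp not analysed here. The 6 summed to 1371 to 1458 in WT and 752 to 832 in DKO in serum/LIF, and to 326 to 357 and 183 to 202 after RA. Laptm5 and Coro1a made up most of the sum, Cd52 averaged 3.74 in WT in serum/LIF, and the part of leukocyte-like cells in these values was not tested.

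Itga4 (NM_010576.4, mm10 chromosome 2, 79255426 to 79333114), which binds fibronectin and VCAM1, had 22.9, 25.8 and 18.7 in WT libraries and 73.4, 58.7 and 78.9 in DKO libraries in serum/LIF, and 151, 94.3 and 126 in WT and 140.3, 141 and 158 in DKO after RA. DKO was 3.13 times WT in serum/LIF (log2 fold change 1.60 ± 0.23, adjusted p = 5.4e-06), and the groups overlapped after RA (0.27 ± 0.23, adjusted p = 0.367). Itga9 (NM_133721.2, mm10 chromosome 9, 118606709 to 118901003), a receptor chain for tenascin, had 417, 458 and 413 in WT libraries and 459, 404 and 479.9 in DKO libraries in serum/LIF, without a call (0.06 ± 0.08, adjusted p = 0.611). RA-treated libraries had 1560.0, 1467 and 1588 in WT and 1232, 1256 and 1277 in DKO, 1.23-fold lower (−0.29 ± 0.08, adjusted p = 0.00315). Of the 4 collagen receptor chains, Itga1, Itga2, Itga10 and Itga11, only Itga2 and Itga10 were called between genotypes, both in serum/LIF. Itga2 (NM_008396.3, mm10 chromosome 13, 114833081 to 114932100) had 1.91, 2.15 and 3.74 in WT libraries and 11.5, 9.39 and 4.51 in DKO libraries there (1.35 ± 0.37, adjusted p = 0.0063), or an adjusted p of 0.145 when only the serum/LIF libraries were fitted. After RA it had 180.1, 122 and 158 in WT and 137, 130.4 and 111 in DKO, which overlapped (−0.27 ± 0.37, adjusted p = 0.59). Itga10 was lower in DKO in serum/LIF (−0.56 ± 0.21, adjusted p = 0.0457). Its call was lost without any 1 of 6 libraries, which were the 3 of WT and replicates 1 and 3 of DKO in serum/LIF and replicate 3 of DKO after RA (0.0512 to 0.140), and 33.5% of its exonic bases are shared with Gm42957 on the same strand.

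The test of whether the genotype effect differed between conditions (the interaction, RA value less serum/LIF value) was called for 16 of 34 members, 7 above and 9 below 0, against 30.8% of all genes tested, 14.8% above and 16.0% below. It was largest in size for Itgb8 (log2 −3.70 ± 0.44, adjusted p = 5.69e-07) among these members. Itgb8 and Lama4 were called higher in DKO in serum/LIF and lower after RA, and the interaction for Lama4 was −1.85 ± 0.31 (adjusted p = 7.5e-05). Itgb7 and Itgal were called the other way round, with interactions of 1.58 ± 0.20 (adjusted p = 1.54e-06) and 1.55 ± 0.24 (adjusted p = 2.09e-05). For Lama3, lower in DKO in both conditions, the value of 1.44 ± 0.20 (adjusted p = 6.52e-06) gives a smaller difference after RA. Itga7 (1.31 ± 0.22, adjusted p = 7.87e-05) and Itgb3 (0.58 ± 0.15, adjusted p = 0.00335) were the more raised in DKO after RA. For Lamb1, raised in both, the interaction was −0.05 ± 0.05 (adjusted p = 0.558). For Lama5, also raised in both, it was −0.22 ± 0.08 and was not called (adjusted p = 0.0517). It was called for Lama5 with TMM scaling (adjusted p 0.0495), edgeR (0.0187) and DESeq2 (0.0265). The Lamc1 interaction was −0.11 ± 0.06 (adjusted p = 0.173), or −0.16 without replicate 2 of WT after RA (adjusted p 0.0313).

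**Figure D3:**
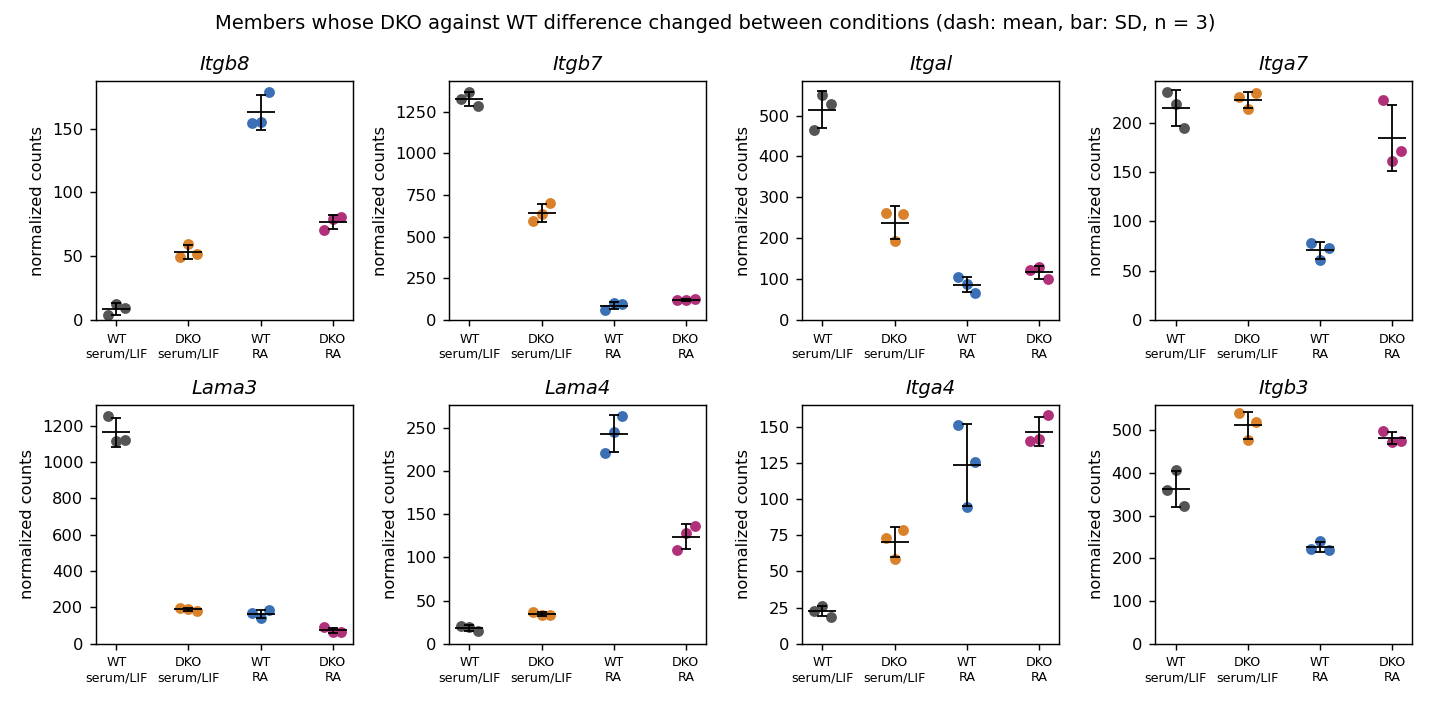
Normalized counts of Itgb8, Itgb7, Itgal, Itga7, Lama3, Lama4, Itga4 and Itgb3 in each of the 12 libraries, with the group mean and SD. Itgb8 and Lama4 were above WT in DKO in serum/LIF and below it after RA, and Itgb7 the reverse.

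With RA, most genes of the whole table were called, and so were most members. In WT, 32 of 34 were called, 21 higher and 11 lower after RA, against 80.6% of all genes tested, 41.4% higher and 39.2% lower. In DKO 28 were called, 19 higher and 9 lower, and 6 did not pass, against 78.3% called among all genes tested, 40.2% higher and 38.2% lower. The median log2 fold change was 0.91 in WT and 0.93 in DKO, and 0.04 in both over all genes tested. Among laminins, 8 rose and 1 fell in WT and 7 rose and 2 fell in DKO, and among the 23 integrins 13 rose and 10 fell in WT and 12 rose and 7 fell in DKO. Scaling each library to the same total (CPM) moved the median of all genes to 0.30 in WT and 0.27 in DKO. Itgb5, lower after RA in WT at −0.23 ± 0.06, was then at 0.032 and not called.

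Lama5 rose 2.88-fold with RA in WT (log2 fold change 1.53 ± 0.06, adjusted p = 8.73e-16), and Lamb1 2.08-fold (1.05 ± 0.04, adjusted p = 4.62e-18). Lamb2 rose 3.17-fold and Lama1 1.96-fold, while Lamc1 did not pass the test (0.03 ± 0.04, adjusted p = 0.548). The largest rises in WT among members were in the collagen receptor chain Itga2 (5.44 ± 0.37, adjusted p = 1.3e-12), in Itgb8 (4.21 ± 0.31, adjusted p = 6.81e-12) and in Lama4 (3.66 ± 0.22, adjusted p = 1.44e-13). In DKO, Itga2 rose by less (3.83 ± 0.37, adjusted p = 1.15e-09), and Itgb8 did not pass the test (0.51 ± 0.31, adjusted p = 0.139) although its RA libraries lay above its serum/LIF libraries. Itgb8 passed in DKO with CPM scaling (0.74, adjusted p 0.0323) and when only the DKO libraries were fitted (0.51, adjusted p 0.0460). Itga3 rose 5.53-fold in WT and 4.59-fold in DKO. The deepest falls in WT were in Itgb7, 15.4-fold (−3.96 ± 0.14, adjusted p = 3.66e-18), Lama3, 7.06-fold (−2.82 ± 0.14, adjusted p = 4.32e-15), and Itgal, 5.94-fold (−2.57 ± 0.17, adjusted p = 6.37e-13). In DKO, where these genes started lower, they fell 5.27-fold, 2.58-fold and 2.05-fold. Itga6 fell 2.44-fold in WT and 2.42-fold in DKO. The 2 genotypes' RA comparisons share no library, and each shares its serum/LIF or RA libraries with a genotype comparison.

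**Figure D4:**
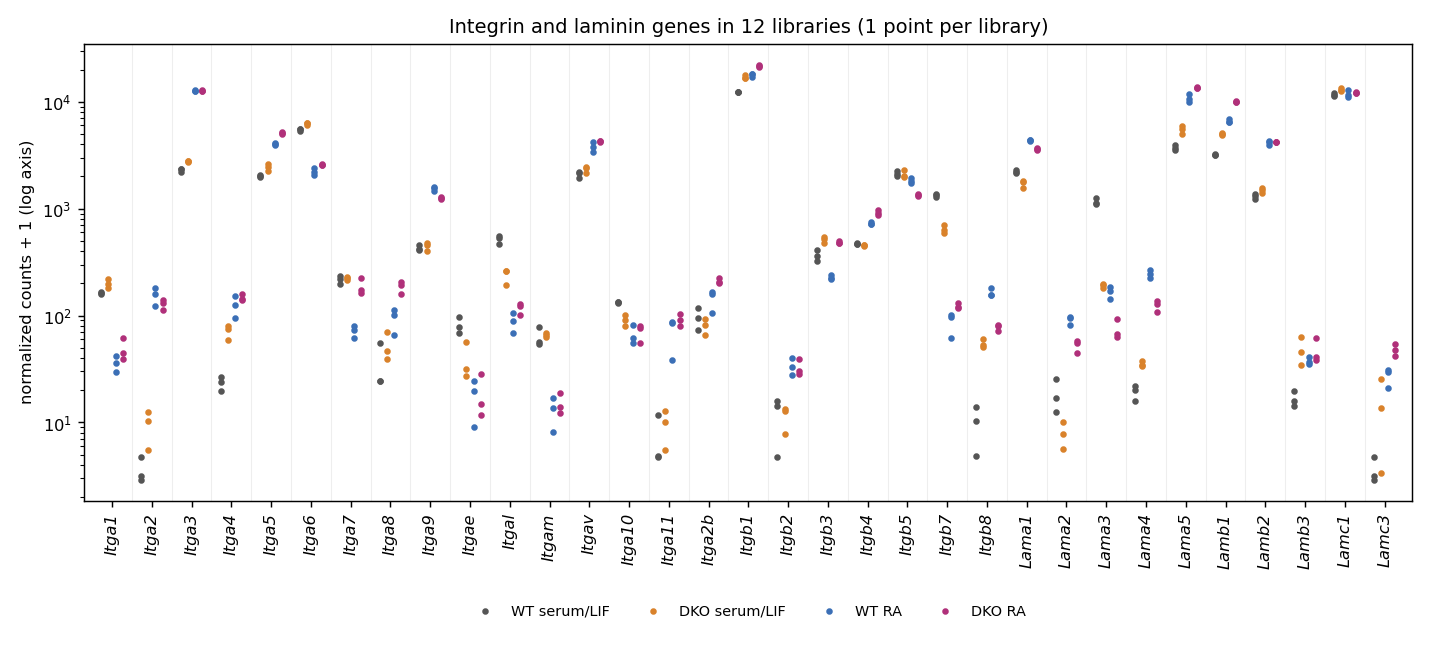
Normalized counts plus 1 (log axis) of 33 of the 34 members tested, with a point for each of the 12 libraries. Itgb1, Lamc1, Itga3, Lama5 and Lamb1 lay highest after RA.

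Partners of these chains were counted in 3 lists. For each list, the share called among all genes tested was 17.8% higher and 15.4% lower in serum/LIF (median log2 fold change −0.01) and 22.0% higher and 20.7% lower after RA (median 0.01). Of 31 laminin and basement membrane partners tested, 18 were higher and 1 lower in DKO in serum/LIF (median log2 fold change 0.35) and 16 higher and 3 lower after RA (median 0.20). Nid1, the nidogen that links laminin to collagen IV, averaged 2600.1 ± 147 in WT libraries and 3313 ± 139 in DKO libraries in serum/LIF and 2261 ± 96.1 and 4215 ± 188 after RA (log2 fold changes 0.35 ± 0.05 and 0.90 ± 0.05, adjusted p = 8.99e-06 and 1.29e-12). Perlecan (Hspg2) differed by 0.41 ± 0.09 and 0.66 ± 0.09 (adjusted p = 0.00282 and 6.67e-05), and the laminin receptor dystroglycan (Dag1) by 0.18 ± 0.04 and 0.29 ± 0.04 (adjusted p = 0.00109 and 1.68e-06). The largest differences in serum/LIF were in the collagen IV chains Col4a6 (2.50 ± 0.24, adjusted p = 1.34e-08), Col4a5 (1.85 ± 0.12, adjusted p = 1.92e-11) and Col4a2 (1.35 ± 0.05, adjusted p = 2.34e-16), among those reaching a mean of 100. After RA, among called genes reported here with the same limit, they were in nephronectin (Npnt, 0.91 ± 0.11, adjusted p = 2.38e-06), Nid1 and Fras1 (0.84 ± 0.10, adjusted p = 4.3e-07), the protein lost in Fraser syndrome. The interaction was called above 0 for 4 of the 31 and below 0 for 12, and was not called for 15, against 14.8% and 16.0% of all genes tested.

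Of 26 integrin ligands, 24 were tested, with 11 higher and 2 lower in DKO in serum/LIF (median 0.26) and 8 higher and 4 lower after RA (median 0.14). The 12 ligands called after RA were 50% of those tested, against 42.7% of all genes tested, and the 13 called in serum/LIF were 54.2%, against 33.2%. Fibronectin (Fn1) was higher in both, by 0.32 ± 0.04 and 0.34 ± 0.04 (adjusted p = 3.92e-06 and 1.61e-06). Thrombospondin 1 (Thbs1) went from 774 ± 39.3 in WT to 4154 ± 35.1 in DKO in serum/LIF (2.42 ± 0.06, adjusted p = 1.57e-19), followed in size by periostin (Postn, 1.90 ± 0.14, adjusted p = 9.11e-11) and Col1a2 (1.45 ± 0.04, adjusted p = 1.03e-17). After RA, Tgfbi, a matrix protein induced by TGF-beta, was lower (−1.70 ± 0.10, adjusted p = 2.75e-12), as was the fibrillin Fbn1 (−0.91 ± 0.08, adjusted p = 2.87e-09), and Edil3 was higher (1.02 ± 0.27, adjusted p = 0.0038). Vitronectin (Vtn) averaged 7.56 and 1.52 in serum/LIF and did not pass the test (adjusted p = 0.264). The fibroblast marker list shares Col1a1, Col1a2 and Postn with the ligand list, so the lists are not independent. The 11 on the fibroblast list summed to 7539 to 7624 in WT and 22434 to 23724 in DKO in serum/LIF, and to 50797 to 52510 and 64731 to 67333 after RA. Most of each sum was Col1a1, Col1a2, Col3a1, Acta2 and Tagln. In DKO, 9 of the 11 were called higher and 0 lower in serum/LIF, against 17.8% and 15.4% of all genes tested. After RA, 6 were higher and 0 lower, against 22.0% and 20.7%. After RA the WT and DKO means were 972 and 771 for Pdgfrb and 382 and 318 for Dcn. They were 36.7 and 15.9 for Lum and 34.5 and 15.7 for Thy1. None of the 11 averaged 0 in any group, and their part in the member values was not tested.

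Of 38 genes of the adhesion complex, which joins integrin tails to actin, 19 were higher and 10 lower in DKO in serum/LIF (median 0.11) and 25 higher and 0 lower after RA (median 0.26). That is 76.3% called in serum/LIF, against 33.2% of all genes tested, and 65.8% after RA, against 42.7%. Vinculin (Vcl) was higher in both, by 0.52 ± 0.04 and 0.65 ± 0.04 (adjusted p = 6.62e-10 and 8.71e-12), as were talin 1 (Tln1, 0.21 ± 0.06 and 0.52 ± 0.06, adjusted p = 0.00547 and 1.31e-07) and integrin-linked kinase (Ilk, 0.43 ± 0.05 and 0.13 ± 0.05, adjusted p = 2.27e-07 and 0.0433). Focal adhesion kinase (Ptk2) did not pass in either condition (−0.02 ± 0.05 and 0.03 ± 0.05, adjusted p = 0.786 and 0.592). In serum/LIF the largest differences were in Tgfb1i1, the paxillin relative Hic-5 (2.26 ± 0.14, adjusted p = 5.55e-12), the kindlin Fermt1 (1.19 ± 0.20, adjusted p = 5.06e-05) and tensin 3 (Tns3, −1.04 ± 0.04, adjusted p = 8.63e-16). After RA the largest included the kinase Ptk2b (0.94 ± 0.11, adjusted p = 3.95e-07) and parvin beta (Parvb, 0.85 ± 0.06, adjusted p = 8.8e-11).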

How the data were processed

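Libraries and groups were taken from the sample titles. Total RNA was extracted with ISOGEN per the labels' protocols, although the labels list the molecule as genomic DNA. Tools named in the submitters' processing notes are STAR 2.7.11b, Trim Galore 0.6.10, DESeq2 1.44.0 and featureCounts (Subread 2.0.6), with mm10 as the build. How strand and reads with several placements were handled is not given in the sources used. The authors deposited a gene table whose library columns hold a signal, read counts divided by a size factor, and per the file headers the table also gives their log2 fold changes, p-values and a score, the Wald statistic. Multiplying by the size factor gave whole reads within 0.01 for 100% of values, but 1 library (replicate 2 of WT after RA) stayed out of the count tests.

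The 15750 genes that reached 10 in 3 or more libraries were tested with limma 3.58.1 in R 4.3.3 (trend and robust settings) on log2(value + 1), in 1 fit of 12 libraries without a replicate block, with 5 contrasts and Benjamini-Hochberg adjustment. Alternatives were a pseudocount of 0.5 or 5, no filter or a filter of 50, CPM or TMM scaling, only the groups compared, a replicate block and leaving out each library. After seeing the data, edgeR 4.0.16 and DESeq2 1.42.0 were added on the recovered reads of 11 libraries. Levels between genes were divided by the length of the transcript the table names, which was matched for 35 of 35 members. Promoters came from RefSeq (GRCm38.p6). In the authors' deposited table, 16 members were higher and 7 lower in DKO in serum/LIF at an adjusted p under 0.05, and 12 higher and 8 lower after RA.

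Values in every library are given for members with a mean of 1000 or more in a group. They are also given for members whose higher group averaged 100 or more and that were called at a log2 fold change of at least 1 between genotypes or in the interaction. The other members are given more briefly, by a range, a fold change or only whether they were called. From each partner list the 3 called genes with the largest difference and a mean of 100 or more were named for each genotype comparison, beside 9 set genes. Values of some genes that this rule takes are not reported here, though counts over the members and lists include them. The members, the 3 partner lists and the 9 marker lists were chosen with earlier results of these data known. Lists were described by counts and medians, and no list was tested as a set. Neural progenitor markers (9) summed to 20215 to 21203 in WT and 21541 to 22347 in DKO in serum/LIF, and 14642 to 14881 and 12943 to 13189 after RA. Sox2 made up most of the neural sum in serum/LIF, at 16010 in WT and 14516 in DKO, and averaged 1646 and 1865 after RA. With RA, 5 of the 9 were called higher and 2 lower in WT, and 4 higher and 5 lower in DKO. Among all genes tested, 41.4% were higher and 39.2% lower with RA in WT, and 40.2% and 38.2% in DKO. Endothelial markers (8) summed to 5105 to 5499 in WT and 5626 to 5705 in DKO in serum/LIF, and 662 to 783 and 907 to 1060 after RA. Pecam1 made up most of this sum in serum/LIF, at 4533 in WT and 4904 in DKO, and averaged 213 and 518 after RA. Of 7 endothelial markers tested, 4 were called higher and 2 lower with RA in WT, and 2 higher and 4 lower in DKO. Trophoblast markers (10) summed to 4564 to 4762 in WT and 5747 to 6780 in DKO in serum/LIF, and 14129 to 14957 and 14986 to 15726 after RA. Tfap2c made up most of the WT sum in serum/LIF, at 3675, and averaged 241 in WT after RA. In WT the keratins Krt8 and Krt18 averaged 324 and 246 in serum/LIF and 7399 and 4945 after RA. Cdx2 went from 30.0 to 15.4 and Eomes from 137 to 71.6. With RA, 4 of the 10 were called higher and 3 lower in WT, and 4 higher and 2 lower in DKO.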

Additional observations from a re-analysis of the deposited data

Results flagged for a closer look

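The genotype effect differed between serum/LIF and RA for 16 members by the test of the difference itself (limma interaction, adjusted p under 0.05), where 30.8% of all genes tested were called. Values are the log2 effect with RA less the effect in serum/LIF. Of the members reported here, they were below 0 for Itgb8 (−3.70), Lama4 (−1.85), Itga2 (−1.61), Itga4 (−1.34), Itgb5 (−0.42), Itga9 (−0.35), Itga3 (−0.27) and Itgb1 (−0.18). They were above 0 for Itgb7 (1.58), Itgal (1.55), Lama3 (1.44), Itga7 (1.31), Itga2b (0.81), Itgb3 (0.58) and Itgb4 (0.41). The Itga2 call was lost without replicate 1 of DKO in serum/LIF, replicate 1 of WT after RA or replicate 3 of DKO after RA (adjusted p 0.0549 to 0.0659). The Itga2b call was lost without any 1 of 7 libraries (adjusted p 0.0543 to 0.121), which were replicates 1 and 2 of WT and replicate 1 of DKO in serum/LIF, replicate 1 of WT after RA and the 3 DKO libraries after RA.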

How the results depend on the processing

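Over the 170 member comparisons and 22 alternatives, 3609 of 3725 values stayed on their side of the threshold, 65 lost a call, 49 gained one and 2 changed sign with a call on one side, in 31 results in all. Among the 3609, 62 values in 22 results changed sign without being called on either side. The changes of sign that involved a call both came with CPM scaling, for Itgb5 with RA in WT (0.032 on the log2 scale, from −0.23) and Lamc1 with RA in DKO (0.15, from −0.08). This scaling also moved the median of all genes up with RA. Of the counts of called members, those lower in DKO in serum/LIF moved by more than 1.5 times when a library was left out, from 7 to a range of 4 to 7. With edgeR on 11 libraries, 17 members were higher and 7 lower in DKO in serum/LIF and 11 higher and 8 lower after RA. DESeq2 gave 17 and 7, and 11 and 7. Same-numbered replicates did not deviate together over all genes tested (correlations −0.03 to 0.05). No pairing by number was seen, but a weak pairing could be hidden by the noise of single genes. With the replicate block, 16 members were higher and 6 lower in serum/LIF, 13 and 7 after RA, 21 and 11 with RA in WT, 19 and 9 with RA in DKO, and 7 above and 9 below 0 in the interaction, and Itga10 lost its call (adjusted p 0.0555). Itgb6 was too low to test, and low counts limit what can be said of members such as Itgae and Lamc3.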
